A study of Homo sapiens with 9 samples.

Results

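Binding of the zinc finger protein ZNF395 was examined around 6 genes of lipid storage and synthesis: PLIN2, HILPDA, FASN, SCD, SREBF1 and CPT1A. The members were the peaks of 5 chromatin immunoprecipitation sequencing (ChIP-seq) lists that had at least 1 base within 25 kb of the transcription start site (TSS) of one of these genes, in hg19 coordinates. They numbered 40 of the 52875 peaks deposited. The cells were 786-O and A498, established human lines of clear cell renal cell carcinoma. Tagged cells of each line were transfected to carry eGFP at the end of the ZNF395 gene and were precipitated with an antibody against GFP. Parental cells of each line, without the tag, were precipitated with the same antibody and give its background. A further library came from parental 786-O cells precipitated for MYC, a transcription factor of growth genes. The labels name no drug treatment and do not say whether the tagged cells are 1 clone or a pool.

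With 1 library in each group, differences between groups lack a replicate check and were not tested. Tagged 786-O had 20034 peaks in all and parental 786-O 3361, tagged A498 had 7718 and parental A498 1563, and the MYC list had 20199. Read depth is unknown, because the lists give no counts. Where the titles say A498, the field for the cell line says 786-O. The MYC library names P300, a coactivator, in its target field. Both are called here by their titles.

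Clear cell renal carcinoma owes its name to cytoplasm filled with neutral lipid and glycogen. Fatty acids are made by FASN, desaturated by SCD, esterified and kept in droplets that are coated by proteins such as PLIN2, or are carried into mitochondria for oxidation through CPT1A. SREBF1 encodes SREBP-1, the main transcriptional activator of fatty acid synthesis genes, and HILPDA is a hypoxia-induced droplet protein that inhibits the lipase ATGL.

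Promoter sequences from RefSeq (build GRCh38.p14) were found for 4 of the 6 genes: PLIN2, SCD, CPT1A and SREBF1. HILPDA and FASN had no entry in the table used. PLIN2 and SCD are shown because tagged 786-O peaks covered both hg19 start sites while their RefSeq promoters differed in the motifs they held. SREBF1 is shown as a 28-base stretch around its motif. Each sequence reads 5′ to 3′ along the gene, and capitals mark matches to GCCGGCG (an element of the huntingtin promoter that ZNF395 is known to bind), CACGTG (the E-box of MYC and SREBP proteins) or ACGTG (the core of hypoxia response elements, also contained in CACGTG). The 250 bases before the start of PLIN2 (chr9:19127493-19127742, minus strand) and of SCD (chr10:100346983-100347232, plus strand), and the stretch of SREBF1 (chr17:17836951-17836978, minus strand), were:
PLIN2: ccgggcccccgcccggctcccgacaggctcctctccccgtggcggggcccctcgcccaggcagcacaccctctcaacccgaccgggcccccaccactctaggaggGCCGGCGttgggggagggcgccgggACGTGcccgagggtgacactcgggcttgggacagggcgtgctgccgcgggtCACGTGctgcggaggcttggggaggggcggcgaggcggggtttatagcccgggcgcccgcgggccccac
SCD: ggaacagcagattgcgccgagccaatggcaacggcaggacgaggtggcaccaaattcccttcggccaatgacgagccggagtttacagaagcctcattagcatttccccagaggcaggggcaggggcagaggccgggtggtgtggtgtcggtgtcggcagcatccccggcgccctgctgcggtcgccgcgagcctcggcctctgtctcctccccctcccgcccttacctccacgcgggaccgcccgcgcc
SREBF1: aggaacttttCGCCGGCGccgggccgcc

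Each motif was searched on both strands in the 250 bases before and 50 bases from each RefSeq start. PLIN2 held 1 GCCGGCG, 1 CACGTG and a separate ACGTG, which began 145, 69 and 120 bases before the start. SREBF1 held GCCGGCG on both strands, in 2 matches that overlap by all but 1 base, the first beginning at base 19 counted with the start as base 1, and neither of the others. The windows at the RefSeq starts of SCD and CPT1A held none of the 3. Of all 35116 promoters in the table, 11.0% held GCCGGCG, 7.26% CACGTG and 21.4% ACGTG. The GC content was 76.7% for PLIN2, 71.0% for SREBF1, 66.3% for SCD and 50.0% for CPT1A. The median over all promoters was 58.7%, and the shares were not matched for GC content. These windows were not placed on the hg19 peaks, so whether a match lies under a peak was not tested. The RefSeq starts were not matched to the hg19 start sites used for the peaks and may differ from them. A promoter without a match here may therefore not be the sequence under the peak. A match describes letters only.

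In tagged 786-O cells, ZNF395-eGFP had a peak over the TSS of all 6 genes, and in tagged A498 cells over 3 of them, FASN, SCD and SREBF1. The GFP antibody had a peak over 1 TSS in parental 786-O, that of FASN, and over none in parental A498. MYC had a peak over 5, all but CPT1A. The share of all bases covered by peaks was 0.357% in tagged 786-O, 0.0279% in parental 786-O, 0.0796% in tagged A498, 0.0118% in parental A498 and 0.366% for MYC. Start sites are not ordinary bases, so these shares are not a matched background for the counts. The share of all promoters with a peak was not analysed here.

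**Figure D1:**
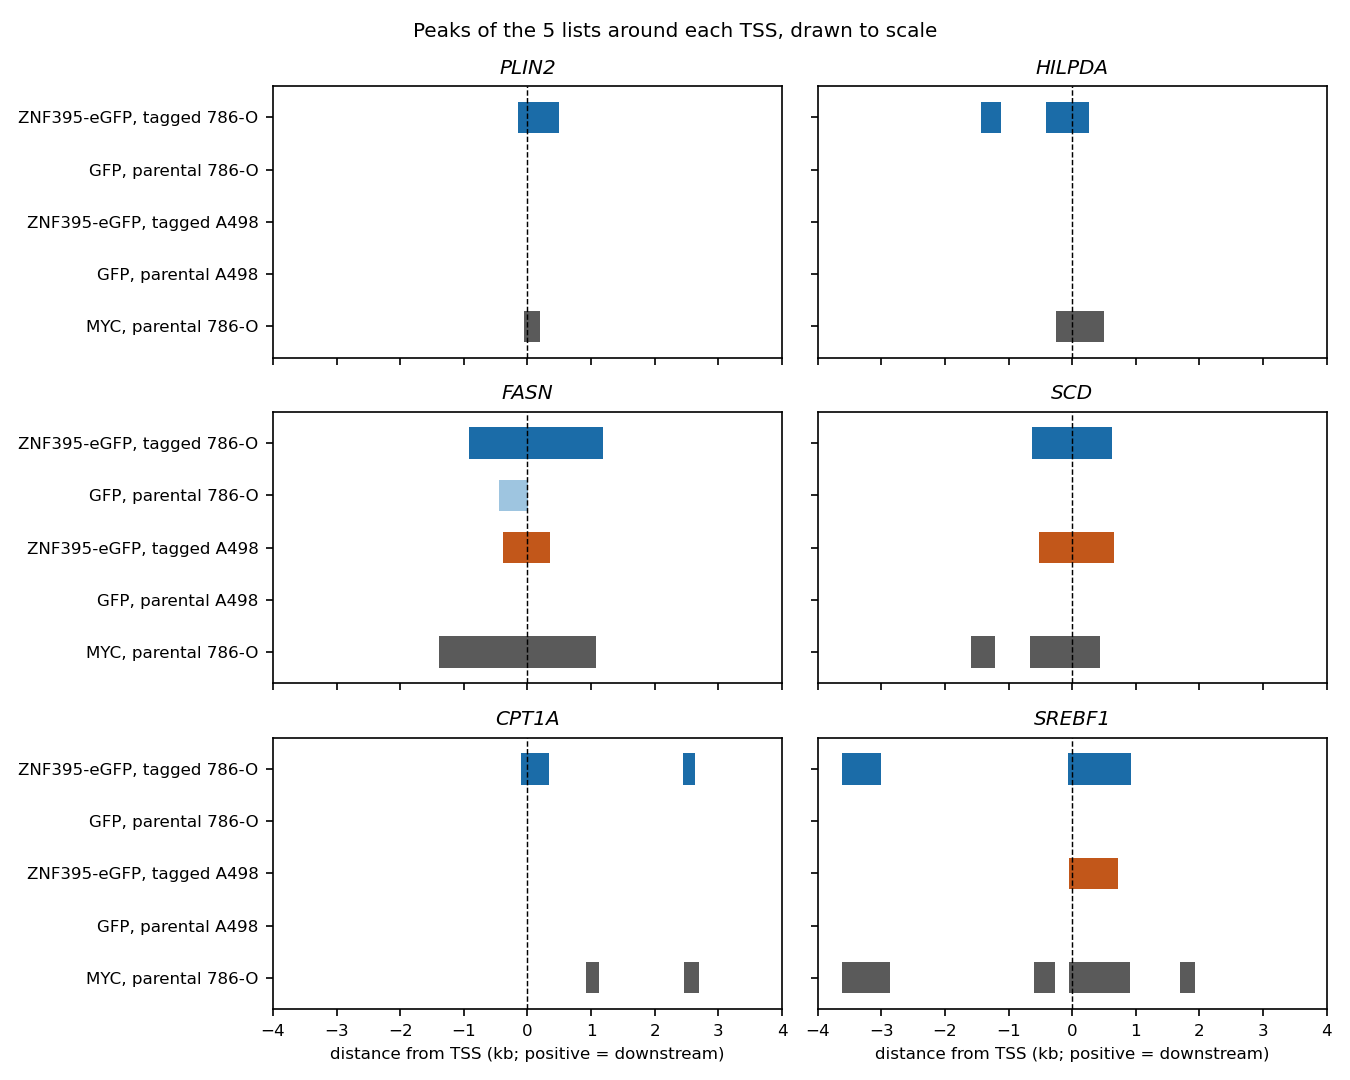
Peaks of the 5 lists from 4 kb upstream to 4 kb downstream of each start, in kb from the TSS along the gene, with 1 row per list and bars drawn to scale. Tagged 786-O has a bar over every dashed TSS line, tagged A498 over those of FASN, SCD and SREBF1, and parental cells only over that of FASN, in 786-O.

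Over the whole windows, tagged 786-O had a peak near 6 genes and parental 786-O near 2, FASN and HILPDA. Of all 50 kb bins of the genome, 21.6% held a tagged 786-O peak and 4.11% a parental 786-O peak. Tagged A498 had a peak near 4 genes and parental A498 near 2, PLIN2 and HILPDA, against 10.5% and 1.31% of bins. MYC had a peak near all 6, against 21.1% of bins. All 6 windows thus held a MYC peak, and bins that hold one are a closer background than all bins. They were not matched for holding a start site. Of these bins, 77.3% held a tagged 786-O peak, 16.0% a parental 786-O peak, 29.0% a tagged A498 peak and 2.99% a parental A498 peak. The 6 of 6 in tagged 786-O therefore stands beside a background in which most bins with a MYC peak have a tagged 786-O peak.

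**Figure D2:**
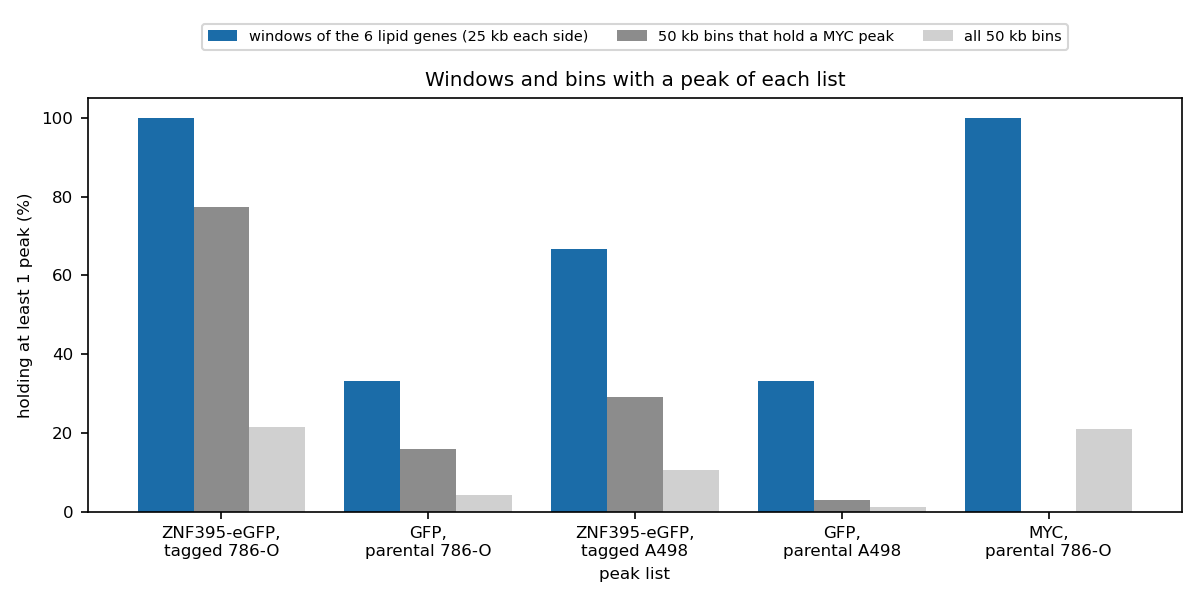
Share of the 6 gene windows (blue), of 50 kb bins with a MYC peak (dark grey) and of all 50 kb bins (light grey) that hold at least 1 peak of each list, in percent. The blue bars reach 100.0% for tagged 786-O and MYC, 66.7% for tagged A498 and 33.3% for both parental lists, and the dark grey bar for tagged 786-O reaches 77.3%.

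The count of genes changed with the length of the lists. When the tagged 786-O list was limited to its 7718 highest peaks, the length of the tagged A498 list, it had peaks near 5 genes and over 4 start sites, in an alternative chosen after seeing the data. When every list was limited to its 1563 highest peaks, tagged 786-O had peaks near 2 genes, tagged A498 near 4 and MYC near 2. The larger number of genes in tagged 786-O than in tagged A498 held at 7718 peaks (5 against 4) but not at 1563. The share of 50 kb bins with a peak was not computed for the shortened lists, so these counts have no background.

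PLIN2, the coat protein of lipid droplets in most cells (TSS on chromosome 9 at 19127604), had its tagged 786-O peak at 19127113 to 19127750, from 146 bp upstream to 491 bp downstream of the TSS. The authors' score, read as a −log10 p or q, was 25.1, which is rank 5401 of 20034 or the top 27.0%. No peak was listed there in parental 786-O, tagged A498 or parental A498. The tagged 786-O peak was 638 bp wide, and the MYC peak over the TSS, 255 bp wide with rank 9532 of 20199, lay wholly inside it. MYC also had a higher-ranked peak 10.9 kb downstream, at 19116381 to 19116736 (rank 5429), where no other list had a peak. Tagged 786-O and MYC shared a site near the edge of the window, 24.6 kb downstream in tagged 786-O (19102808 to 19102997, rank 14895) and 24.5 kb in MYC (rank 9597). The next protein-coding gene downstream in RefSeq order is HAUS6, a subunit of the augmin complex of the mitotic spindle.

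A498 had no ZNF395-eGFP peak near PLIN2. The nearest tagged A498 peak lay 218.1 kb downstream. Parental A498, in contrast, had 1 GFP peak there, 129 bp wide, 4.83 kb downstream at 19122648 to 19122776, with rank 1223 of 1563. The lines thus differed in opposite directions at this gene: tagged minus parental peaks came to 2 in 786-O and -1 in A498. The A498 value rests on that 1 peak. With a window of 1 kb, or in the upper 50% of its list, parental A498 had no peak near any of these genes. The opposite sign was then absent.

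HILPDA (TSS on chromosome 7 at 128095903) had 3 tagged 786-O peaks. The peak over the TSS, at 128095496 to 128096163, had rank 10355 and fell in the lower part of its list (top 51.7%). A second peak 1.11 kb upstream, at 128094478 to 128094791, had rank 5852 and no counterpart in any other list. MYC had 1 peak over the TSS, at 128095654 to 128096403, with rank 3578 of 20199 (top 17.7%). The tagged and MYC peaks over the TSS shared 510 bp, with the tagged midpoint 199.0 bp farther upstream. The nearest peaks of tagged A498 and of both parental lists lay 20.8 kb away.

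The third HILPDA peak was the highest-ranked tagged 786-O peak of all 6 windows and lay 20.7 kb downstream, at 128116594 to 128117346 (score 98.1, rank 365 of 20034, top 1.82%). It was also the 1 site of the 22 in these windows that appeared in all 5 lists. Parental 786-O had a peak there with rank 806 of 3361, tagged A498 with rank 1395 of 7718, parental A498 with rank 919 of 1563 and MYC with rank 7824 of 20199. GFP peaks were thus called here with and without the tag in both lines. It lies toward METTL2B, a tRNA methyltransferase gene that follows HILPDA in RefSeq order. Whether it sits at the start of that gene was not tested.

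FASN, the fatty acid synthase (TSS on chromosome 17 at 80056106), carried the widest peaks. The tagged 786-O peak ran from 916 bp upstream to 1180 bp downstream (80054926 to 80057022, 2097 bp, score 66.6, rank 1003, top 5.01%). Parental 786-O had a 460 bp peak inside it, at 80056099 to 80056558, with rank 2031 of 3361 (top 60.4%). Signal of the GFP antibody was thus called at the FASN start in 786-O without the tag too, and the parental peak reached only 7 bp past the TSS. Tagged A498 had a peak of 740 bp over the TSS, at 80055751 to 80056490, with rank 274 of 7718 (top 3.55%), the highest-ranked tagged A498 peak of the 6 windows. No parental A498 peak lay within 25 kb, the nearest being 229.3 kb away. In A498 the FASN start was therefore called in tagged cells only.

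The MYC peak at FASN was the widest and highest-ranked of its list in these windows, at 80055024 to 80057501 (2478 bp, rank 127 of 20199, top 0.629%). It shared 1999 bp with the tagged 786-O peak and contained the whole tagged A498 peak. The midpoint of the tagged 786-O peak lay 288.5 bp farther downstream than that of MYC, and that of tagged A498 142.0 bp farther. Tagged A498 had a second, weak peak 21.4 kb downstream, at 80034439 to 80034684 (rank 6052), with no peak in any other list.

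SCD, the stearoyl-CoA desaturase that makes monounsaturated fatty acids (TSS on chromosome 10 at 102106772), had peaks of similar extent over its start in 3 lists. Tagged 786-O had 102106140 to 102107399 (1260 bp, score 40.7, rank 2604, top 13.0%). Tagged A498 had 102106254 to 102107435 (1182 bp, score 11.4, rank 1237, top 16.0%). MYC had 102106106 to 102107207 (1102 bp, rank 2471, top 12.2%). The tagged peaks of both lines shared 1146 bp, with midpoints 75.0 bp apart. Neither parental list had a peak within 25 kb.

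MYC alone also had peaks 1.21 kb upstream of SCD (rank 10118) and 18.0 kb downstream (rank 13090). A weaker site about 24.3 kb downstream was common to tagged 786-O (102131064 to 102131324, rank 8779) and MYC (rank 18052). Just outside the window, 26.3 kb downstream, tagged 786-O had a further peak (102133035 to 102133845, rank 12057), parental 786-O one 26.6 kb away (rank 948 of 3361) and MYC one 26.2 kb away (rank 10314). A slightly wider window would thus add a parental 786-O peak to SCD.

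SREBF1 (TSS on chromosome 17 at 17740325) had 3 tagged 786-O peaks, 1 tagged A498 peak and 6 MYC peaks, the most of the 6 genes for MYC. The tagged 786-O peak over the TSS lay mostly downstream of it, from 59 bp upstream to 928 bp downstream (17739397 to 17740384, score 42.0, rank 2501, top 12.5%). The tagged A498 peak ran from 55 bp upstream to 725 bp downstream (17739600 to 17740380, score 17.0, rank 630, top 8.16%) and lay wholly inside it. The MYC peak ran from 42 bp upstream to 910 bp downstream (rank 1426 of 20199, top 7.06%). Midpoints of tagged 786-O and MYC were 0.5 bp apart, the closest of any pair of peaks over a TSS here. Neither parental list had a peak in the window, the nearest being 155.6 kb away in 786-O and 1225.1 kb away in A498.

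Beyond the start, 2 further SREBF1 sites were common to tagged 786-O and MYC and absent from the other lists. One lay 3.01 kb upstream in tagged 786-O (17743331 to 17743944, rank 6127) and 2.86 kb upstream in MYC (rank 2469). The other lay 17.0 kb downstream in both, with ranks of 11714 in tagged 786-O and 15907 in MYC. MYC alone had 3 more peaks, 273 bp upstream, 1.69 kb downstream and 13.1 kb downstream, with ranks of 14059, 14159 and 13612.

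CPT1A, which admits long-chain fatty acids to mitochondrial oxidation (TSS on chromosome 11 at 68609399), had the lowest-ranked ZNF395-eGFP peaks over or near a start. The tagged 786-O peak over the TSS, at 68609066 to 68609502, had a score of 5.50 and rank 16875 of 20034 (top 84.2%). A second, 2.44 kb downstream at 68606765 to 68606957, had rank 16037 and overlapped a MYC peak of rank 19334. The other MYC peak lay 923 bp downstream of the TSS, at 68608268 to 68608476 (rank 11409), so that neither MYC peak covered the start. Tagged A498 and both parental lists had no peak in the window. CPT1A was the gene without a peak in the upper 50% of the tagged 786-O list, and the same was true of the MYC list.

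**Figure D3:**
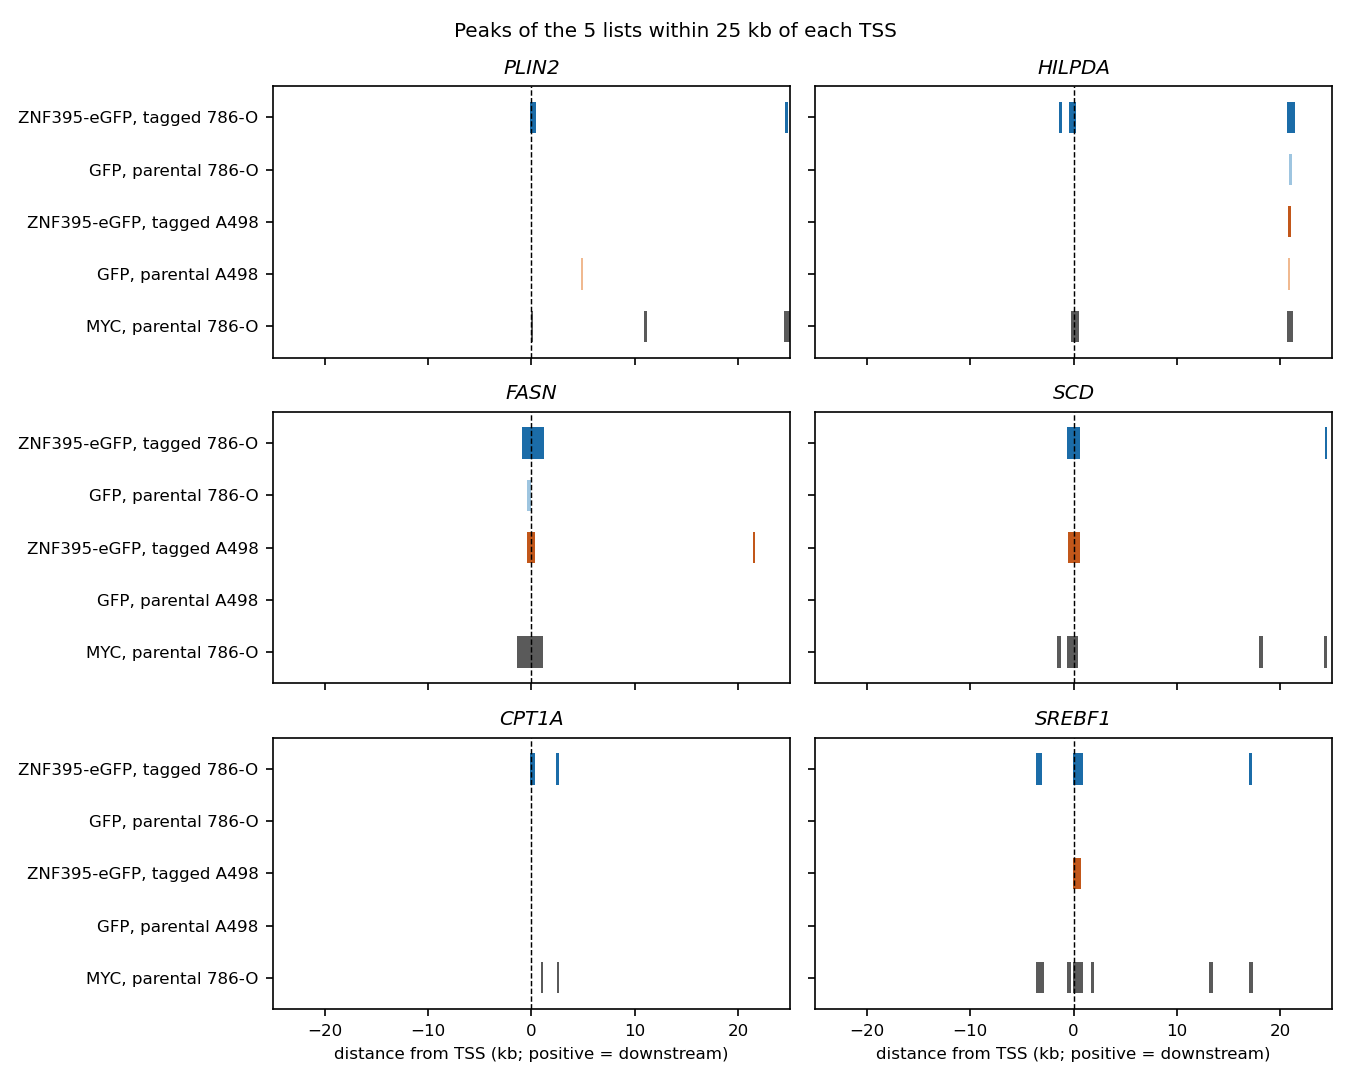
Peaks of the 5 lists within 25 kb of each TSS, in kb along the gene, with 1 row per list. Bars under 0.25 kb are widened to that size to be visible. The column of 5 bars 20.7 kb downstream of HILPDA is the site common to all lists, and upstream of the starts no bar lies beyond 3.62 kb.

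Across the 6 windows, the 13 tagged 786-O peaks had a median rank in the top 30.6% and a median width of 614 bp, against 393 bp for the whole list. The 5 tagged A498 peaks had a median in the top 16.0% and a width of 740 bp, against 245 bp. The 18 MYC peaks lay near the middle of their list, with a median in the top 48.8% and a width of 380.5 bp, against 425 bp. Peaks over a TSS had larger median widths, of 828 bp in tagged 786-O, 781 bp in tagged A498 and 953 bp for MYC. A wide peak is more likely to cover a given base, so part of this is by construction. The tagged 786-O peak over CPT1A (437 bp) and the MYC peak over PLIN2 (255 bp) were narrower than the medians of their lists in these windows. By score in tagged 786-O, the peaks over a start ranked FASN first, then SREBF1 and SCD close together, then PLIN2, HILPDA and CPT1A. In tagged A498 the order was FASN, SREBF1 and SCD. Without replicates, neighbours in these orders cannot be told apart.

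**Figure D4:**
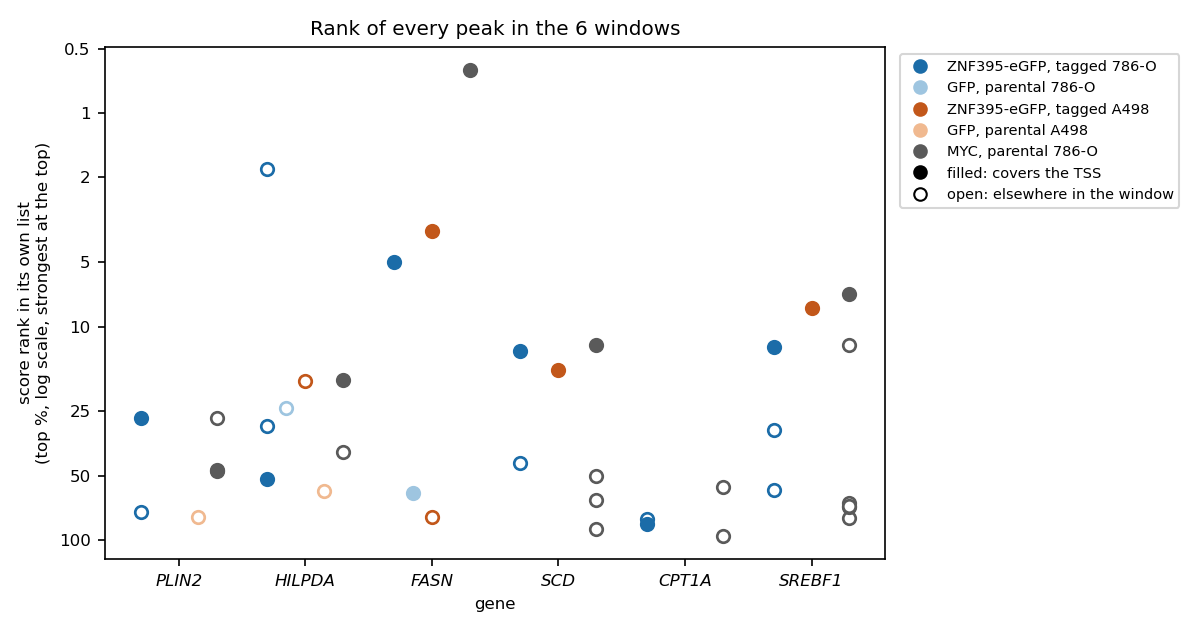
Score rank of each of the 40 peaks within its own list, in percent from the top on a log axis, by gene and coloured by list. Filled points cover the TSS. FASN holds the highest filled points of the tagged lists (5.01% and 3.55%) and of MYC (0.629%), and the filled CPT1A point lies at 84.2%.

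Of the 13 tagged 786-O peaks, 11 had no parental 786-O peak (84.6%, exact 95% interval 54.6 to 98.1), against 87.8% of the whole list. Of the 5 tagged A498 peaks, 4 had no parental A498 peak (80.0%, 28.4 to 99.5), against 93.1%. Both backgrounds lie within the intervals, which are wide and cover counting error only. The intervals treat peaks as independent, although several lie at the same gene. They do not show that the members match the whole list. In the other direction, both parental 786-O peaks overlapped a tagged 786-O peak, against 76.2% of that list. Of the 2 parental A498 peaks, 1 overlapped a tagged A498 peak, against 35.1%.

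Of the 13 tagged 786-O peaks, 4 were shared with tagged A498 (30.8%, 9.09 to 61.4), against 20.5% of the whole list. They were the 4 of highest score: the site downstream of HILPDA and the starts of FASN, SREBF1 and SCD. Of the 5 tagged A498 peaks, 4 were shared with tagged 786-O (80.0%, 28.4 to 99.5), against 56.6%. Once peaks at parental sites were left out of both lines, 2 of 11 tagged 786-O peaks (18.2%) and 2 of 4 tagged A498 peaks (50.0%) remained shared. The share over the whole lists was not computed under that rule, so these counts have no background. The sites that remained shared were the starts of SCD and SREBF1. That no parental peak of the same line overlapped them follows from the rule. No GFP peak lay within 25 kb of these starts in either parental line, which was also true of CPT1A.

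MYC peaks overlapped 11 of the 13 tagged 786-O peaks (84.6%, 54.6 to 98.1), against 60.6% of the whole list, and 4 of the 5 tagged A498 peaks (80.0%, 28.4 to 99.5), against 46.8%. The 2 tagged 786-O peaks without MYC were the one over the CPT1A start and the one 1.11 kb upstream of HILPDA. Of the 18 MYC peaks, 11 overlapped a tagged 786-O peak (61.1%, 35.7 to 82.7), against 60.9% of the MYC list. These 3 backgrounds lie within the intervals, which again are wide and treat peaks at the same gene as independent. Merged over the 5 lists, the 40 peaks formed 22 sites: 7 of tagged 786-O with MYC, 7 of MYC alone, 2 of tagged 786-O alone, 2 of both tagged lists with MYC, and 4 in other combinations. The MYC and parental 786-O lists name the same control library.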

How the data were processed

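Peak lists of 5 of the 9 samples were used; the 4 inputs have none. The tools BWA and MACS2 and the build hg19 are named, per the submitters' processing notes, without versions or settings. Per the deposited peak names, each library was called against 1 control, from merged and sorted alignments. The authors' score of each deposited peak was read as a −log10 p or q, since each list begins just above 2. Scores only ranked peaks within a list, where they depend on depth and control.

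Positions are 1-based. Start sites are those of the selection rule. Strands are from RefSeq or textbook knowledge. Overlap means at least 1 bp. Shares carry exact (Clopper-Pearson) 95% intervals, treating peaks as independent. Bins of 50 kb tiled chromosomes 1 to 22 and X over the span of the lists. Every gene and every peak in a window is named or counted. Members and lists were chosen with earlier results of these data known. The other lipid genes planned need an hg19 annotation and were not analysed here. Overlaps were tested on simulated data and against bedtools 2.31.1. Intervals came from scipy 1.17.1, tables from pandas 2.3.3 with numpy 2.4.6 and figures from matplotlib 3.10.9, under Python 3.11.15. Alternatives covered window size, peak midpoints, scores, list length and overlap rules.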

Additional observations from a re-analysis of the deposited data

Results flagged for a closer look

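PLIN2, the droplet coat protein gene, was the 1 gene of 6 at which the lines moved in opposite directions between tagged and parental cells. In 786-O, tagged cells had 2 peaks and parental cells 0 within 25 kb, a difference of 2. In A498, tagged cells had 0 peaks and parental cells 1, a difference of -1. The difference was not tested, since each group is 1 library, and the peaks concerned lie at different positions. The A498 value rests on 1 peak. Within 1 kb, or in the upper 50% of its list, parental A498 had no peak near any of the 6 genes, and the opposite sign was absent.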

How the results depend on the processing

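Of 78 recomputed values, 59 stayed within 1.5 times the reported count or within the 95% interval of the reported share, and 19 did not. With every list limited to its 1563 highest peaks, genes with a peak numbered 2 in tagged 786-O, 1 in parental 786-O and 2 for MYC; of the 2 tagged 786-O peaks left, 50.0% had no parental peak, 100.0% were shared with tagged A498 and 50.0% with MYC. In the upper 50% of each list, parental 786-O had a peak near 1 gene and parental A498 near 0, while 100.0% of the tagged A498 peaks had no parental peak and 100.0% were shared with tagged 786-O. The share shared with tagged 786-O was also 100.0% among peaks with a score of at least 5. With 50% reciprocal overlap, 100.0% of tagged peaks in 786-O and 100.0% in A498 had no parental peak, because parental peaks are narrower than the tagged ones around them. Parental 786-O had a peak near 1 gene with windows of 1, 5 or 10 kb. Parental A498 had 0 genes with a window of 1 kb and 1 with 5 or 10 kb. Smaller windows and shorter lists hold fewer peaks by construction. Tagged 786-O had a peak near 6 genes, and tagged A498 near 3 or 4, in every window from 1 to 50 kb. No paired analysis was possible because each group is 1 library. Libraries of the same line form 1 pair each. Depth behind single peaks is unknown, so a missing peak does not show absence of binding.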

Other observations

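Beyond the windows, 22 more peaks lay between 25 and 50 kb from the start sites: 9 of tagged 786-O, 2 of parental 786-O, 3 of tagged A498, 0 of parental A498 and 8 of MYC. HILPDA had 8 of them, FASN 6, PLIN2 4 and SCD 4, while CPT1A and SREBF1 had 0. No background share was computed for such flanks, and the lists differ in length, so these counts are descriptive only. On the far side of FASN, toward DUS1L, a tRNA dihydrouridine synthase gene, tagged 786-O had a peak 32.1 kb downstream (80023320 to 80023987, rank 1041 of 20034) that ranked close to the one over the FASN start (rank 1003). Tagged A498 (rank 1088 of 7718) and MYC (rank 4125 of 20199) had peaks at the same site, and neither parental list did. Toward IMPDH1, the gene of a guanine nucleotide synthesis enzyme, a site 49.5 kb upstream of HILPDA had peaks in tagged 786-O (rank 4648), parental 786-O (rank 1554 of 3361), tagged A498 (rank 3120) and MYC (rank 1160).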
